A study of Homo sapiens with 13 samples.

Results

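The genes of the TGF-beta and BMP signalling system were followed in human non-small cell lung carcinoma cells that colonise bone. The members were 34 listed genes for ligands, receptors, SMAD proteins, inhibitors, co-repressors and target genes. Each gene was read from the brightest of the probe sets annotated to it alone (by its mean signal), which gave 31 measured members of 11963 measured genes. BMPR1A, NOG and LEFTY2 had no probe set of their own in this annotation and were not analysed here. The 31 comprised 8 ligands, 6 receptors, 7 SMADs, 2 extracellular or membrane inhibitors (GREM1 and BAMBI), 2 nuclear co-repressors (SKI and TGIF1) and 6 target genes (ID1, ID2, ID3, ID4, PMEPA1 and CDKN2B).

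There were 13 Affymetrix arrays of total RNA. The highly metastatic lines M1, M4 and M5 had 3 arrays each, the control cells carrying a luciferase reporter had 2, and the control cells without luciferase had 2. Each metastatic line was recovered from bone lesions of mice given control cells by injection into the heart, and nothing in the labels says that M1, M4 and M5 differ by a defined genetic change. The name of the starting cell line is not given in the sources used here. Each array carried a pool of 3 groups of cells, and the arrays of a group are labelled biological replicates with no separate culture named, so p-values measure only the spread between these arrays.

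TGF-beta, activin and BMP ligands bind pairs of serine/threonine kinase receptors. TGF-beta and activin receptors phosphorylate SMAD2 and SMAD3, BMP receptors phosphorylate SMAD1, SMAD5 and SMAD9, and both kinds of SMAD enter the nucleus with SMAD4 and bind target genes, among them the ID genes for BMP. SMAD6 and SMAD7 are inhibitory SMADs. Mineralised bone stores TGF-beta, which is released when bone is resorbed, and the pathway is well studied in tumour cells that grow in bone.

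Signals are log2 values after robust multi-array averaging, so a step of 1 is a 2-fold change and levels of different genes cannot be set against each other. "Called" means an adjusted p under 0.05 by limma with Benjamini-Hochberg adjustment over all 11963 genes. A value of ± after a log2 difference is its SE, and after a mean its SD. Control means the 4 control arrays together. Between the 2 kinds of control 0 genes (0%) were called without a block and 2 with the array sets described below as a block, with 154 and 709 genes at an unadjusted p under 0.05, which with 2 arrays of each does not show that the 2 kinds are alike.

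The arrays themselves fell into 4 sets by the signal of the manufacturer's 62 control probe sets, which the labels do not mention. Set 1 held M1 replicate 2 and the first control array of each kind. Set 2 held replicate 1 of each metastatic line and the second control array of each kind. Set 3 held M1 replicate 3 and M4 replicates 2 and 3, and set 4 held only M5 replicates 2 and 3. Those last 2 arrays had interquartile ranges of 3.16 and 3.29 log2 units, against 3.46 to 3.70 on the other 11 arrays. For this reason the results were fitted without and with the array sets as a block. With the block every M5 value rests on M5 replicate 1 alone, since set 4 holds no other group, its SE comes from the spread of the other arrays, and a call kept or lost there says little on how stable it is. The part of the array sets in the results was not tested further. The keratin KRT18 averaged 12.54 over the arrays, while the epithelial markers EPCAM and CDH1 lay below the lower quartile of every array. So did 2 of 4 haematopoietic markers (PTPRC and CD3E), 3 of 5 endothelial markers (CDH5, VWF and KDR) and 3 of 8 fibroblast markers (LUM, FAP and POSTN). The same held for 1 of 3 osteoblast markers (ALPL) and 1 of 2 osteoclast markers (CALCR). The summed linear signal of the osteoclast markers was 57.8 to 58.7 in M5, against 47.3 to 56.2 in control. In M4 it was 51.9 to 62.1 and in M1 47.5 to 53.1. That of the haematopoietic markers was at most 113.4 in M5, 83.8 in M1, 85.3 in M4 and 87.2 in control. The part of these sums in the members' values was not tested. The summed linear signal of the 8 fibroblast markers was 1165 to 2214 in M1, 926 to 1362 in M4 and 592 to 807 in M5, against 691 to 935 in control, and its part in the members' values was not tested. COL3A1 carried most of that sum in M1, M4 and control, but not on every M5 array. The other 7 summed to 262 to 286 in M1, 229 to 302 in M4 and 252 to 314 in M5, against 244 to 303 in control. RNA of whole cell pools cannot tell fewer cells of a kind from less RNA per cell.

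Promoter sequences are shown for the 4 members called in any comparison with all 13 arrays, without or with the block, so that the stretch before each start can be read beside the values. They are the 250 bases upstream of the first listed start in RefSeq, build GRCh38.p14, which had an entry for 28 of the 31 members. Capitals mark the SMAD-binding letters GTCTG or, on the other strand, CAGAC, the BMP-SMAD letters GGCGCC, and the palindrome GTCTAGAC. TGFB2 lies at chr1:218345086-218345335, SMAD3 at chr15:67065352-67065601, SMAD6 at chr15:66701986-66702235 and TGIF1 at chr18:3411759-3412008, all on the plus strand.
TGFB2: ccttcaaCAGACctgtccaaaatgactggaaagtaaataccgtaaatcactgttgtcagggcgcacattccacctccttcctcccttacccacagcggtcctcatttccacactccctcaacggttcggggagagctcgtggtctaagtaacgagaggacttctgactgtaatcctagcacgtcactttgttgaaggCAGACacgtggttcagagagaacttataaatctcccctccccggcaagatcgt
SMAD3: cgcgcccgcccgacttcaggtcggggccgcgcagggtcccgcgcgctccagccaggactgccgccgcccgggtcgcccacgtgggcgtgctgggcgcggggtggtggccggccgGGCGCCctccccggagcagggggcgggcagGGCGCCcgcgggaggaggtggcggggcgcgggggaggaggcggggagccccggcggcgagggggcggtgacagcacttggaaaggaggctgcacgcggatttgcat
SMAD6: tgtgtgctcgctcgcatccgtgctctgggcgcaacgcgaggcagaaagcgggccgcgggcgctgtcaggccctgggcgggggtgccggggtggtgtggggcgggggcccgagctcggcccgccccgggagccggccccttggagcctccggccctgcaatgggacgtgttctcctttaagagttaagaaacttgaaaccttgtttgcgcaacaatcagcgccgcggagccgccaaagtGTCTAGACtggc
TGIF1: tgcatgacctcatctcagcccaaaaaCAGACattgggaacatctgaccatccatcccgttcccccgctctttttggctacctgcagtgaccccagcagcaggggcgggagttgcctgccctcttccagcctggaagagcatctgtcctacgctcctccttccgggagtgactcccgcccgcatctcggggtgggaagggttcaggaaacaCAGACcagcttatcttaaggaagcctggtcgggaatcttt
The windows of TGFB2 and TGIF1 each held 2 copies of the first motif, SMAD3 held 2 copies of GGCGCC, and SMAD6 was the 1 member with GTCTAGAC, 12 bases before its start. Among the 28 members 12 held the first motif, 11 held GGCGCC and 1 held GTCTAGAC, against 37.8%, 16.1% and 0.176% of 27305 gene windows of the same length. A match describes the letters in this window and is no measure of binding.

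Set against control, the bone-metastatic lines as a mean showed no called change in any of the 31 members, where 0.0251% of all genes (3 genes) were called. SMAD3, the signal transducer of TGF-beta and activin, was the 1 member at an unadjusted p under 0.05, with a mean difference of 1.02 ± 0.21 (adjusted p = 0.115). That 1 of 31 (3.23%) stands against 8.16% of all genes. The median difference of the members was 0.03, against 0.01 over all genes, with 20 members above 0 and 11 below. With the array sets as a block again 0 members were called, against 0.527% of genes, and 5 members passed an unadjusted p under 0.05, against 9.69% of genes. No member had all 9 metastatic arrays above the 4 control arrays, or all 9 below, against 0.276% and 0.326% of all genes. Nor did any member, on the probe set used for it, have M1 wholly above or below control, against 2.35% and 3.59% of all genes. The heat map of members by array gives every value behind these counts.

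**Figure D1:**
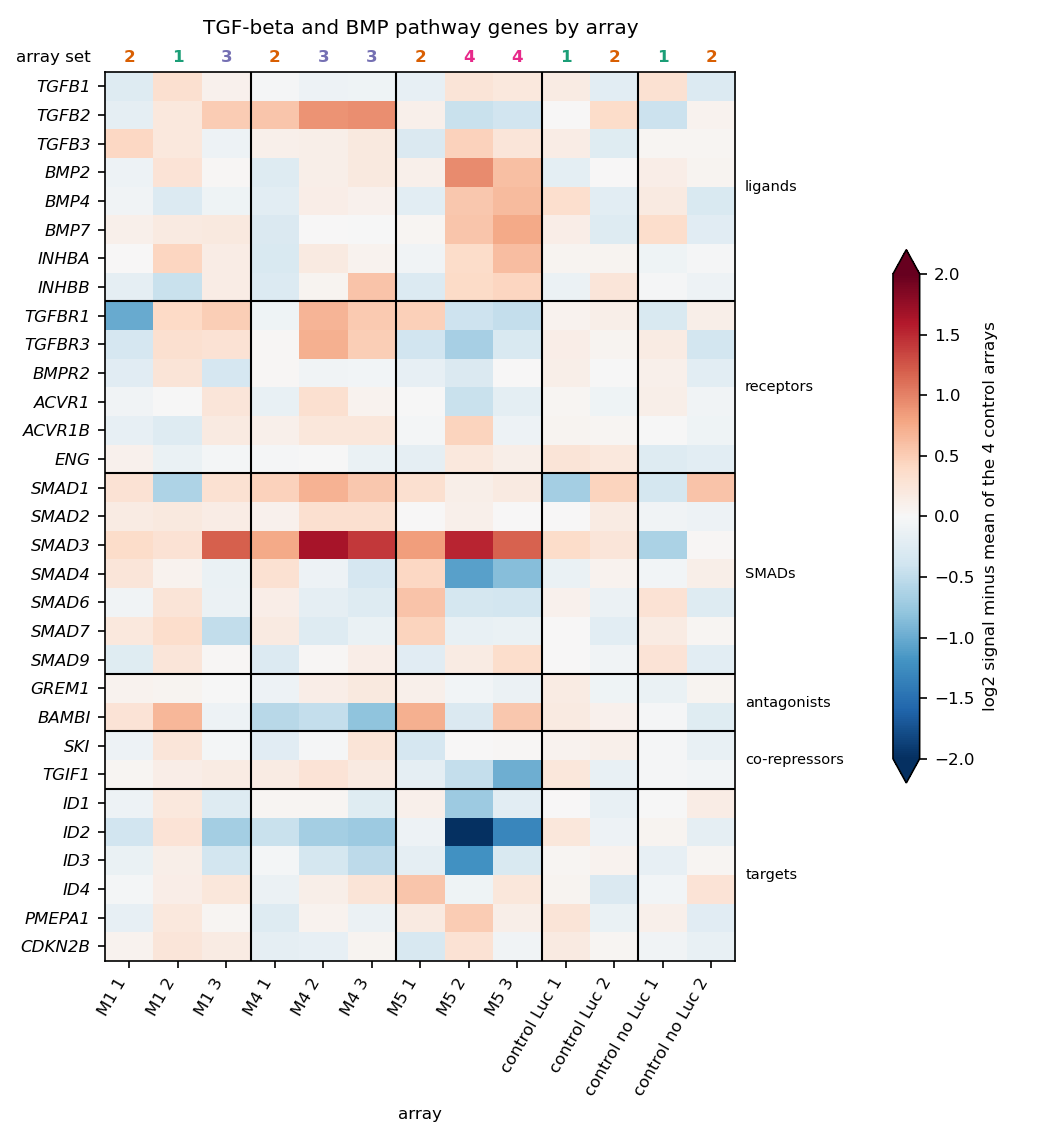
Log2 signal of each of the 31 members (rows, grouped by role) on each of the 13 arrays (columns, M1, M4 and M5 before the controls) minus the mean of the 4 control arrays. The colour scale ends at 2 log2 units either way, which ID2 on M5 replicate 2 exceeds. Numbers above the columns are the array sets, and M5 replicates 2 and 3 (set 4) show the deepest colours in several rows.

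By line, 0 members were called in M1 (0.0251% of all genes) and 0 in M4 (0.092%). In M5 the single called member was SMAD3, higher than control, where 2.37% of all genes were called. One member of 31 is 3.23%, close to that background. At an unadjusted p under 0.05 the counts were 1 member in M1 (3.08% of all genes), 4 in M4 (6.91%) and 7 in M5 (18.0%). Between the lines, 0 members were called for M4 minus M1 (0.0251% of genes) and 0 for M5 minus M1 (1.23%), and 2 members, TGFB2 and TGIF1, were lower in M5 than in M4 (2.16%). With the array sets as a block the 1 member called in any comparison was SMAD6, higher in M5 than in control (1.98% of genes). The block gave 0 members for M1 minus control (0.234% of genes), M4 minus control (0.15%), M4 minus M1 (0.117%), M5 minus M1 (1.61%) and M5 minus M4 (1.85%). Between the 2 kinds of control it gave 0 members too (0.0167%).

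Among the SMADs, SMAD3 was higher in every M4 and M5 array than in every control array. Its signal was 6.50, 6.42 and 7.33 in M1, 6.89, 7.78 and 7.54 in M4 and 6.96, 7.65 and 7.30 in M5, against 6.50 and 6.37 in control with luciferase and 5.49 and 6.14 in control without it. M1 overlapped the controls, 2 of its 3 arrays lying within their range, and the lowest control array was one without luciferase. The mean was 7.30 ± 0.34 in M5 (SD, n = 3), against 6.13 ± 0.45 in control (SD, n = 4). The difference of 1.18 ± 0.26, a 2.26-fold higher signal, was called (limma adjusted p = 0.0374). In M4 the difference of 1.28 ± 0.26 had an adjusted p of 0.157, and in M1 that of 0.62 ± 0.26 had one of 1.00. With the array sets as a block these were 0.66 ± 0.17 and 0.33 ± 0.14. M5 and M4 differed by -0.10 ± 0.28 (adjusted p = 0.891), so these 2 lines were not shown to differ in SMAD3.

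The SMAD3 call did not survive the array sets as a block, where the difference was 0.73 ± 0.21 (adjusted p = 0.116), nor the removal of the M5 arrays of set 4, where it was 0.83 (adjusted p = 0.460). Within set 2, where 1 array of each line stands beside 2 control arrays, SMAD3 exceeded control in each line, with 0.24 for M1, 0.63 for M4 and 0.70 for M5. Within set 1 the M1 array exceeded control by 0.43. The 4 probe sets of SMAD3 gave M5 differences of 1.18, 1.02, 0.88 and 0.73 without the block and of 0.73, 0.89, 0.61 and 0.58 with it. Each of the 4 was thus higher in M5 than in control in both fits, as the plot of SMAD3 and ID4 probe sets shows. Control with luciferase exceeded control without it by 0.62 ± 0.35 in SMAD3 (adjusted p = 1.00), and M5 exceeded the controls with luciferase alone by 0.87 (adjusted p = 0.289).

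**Figure D2:**
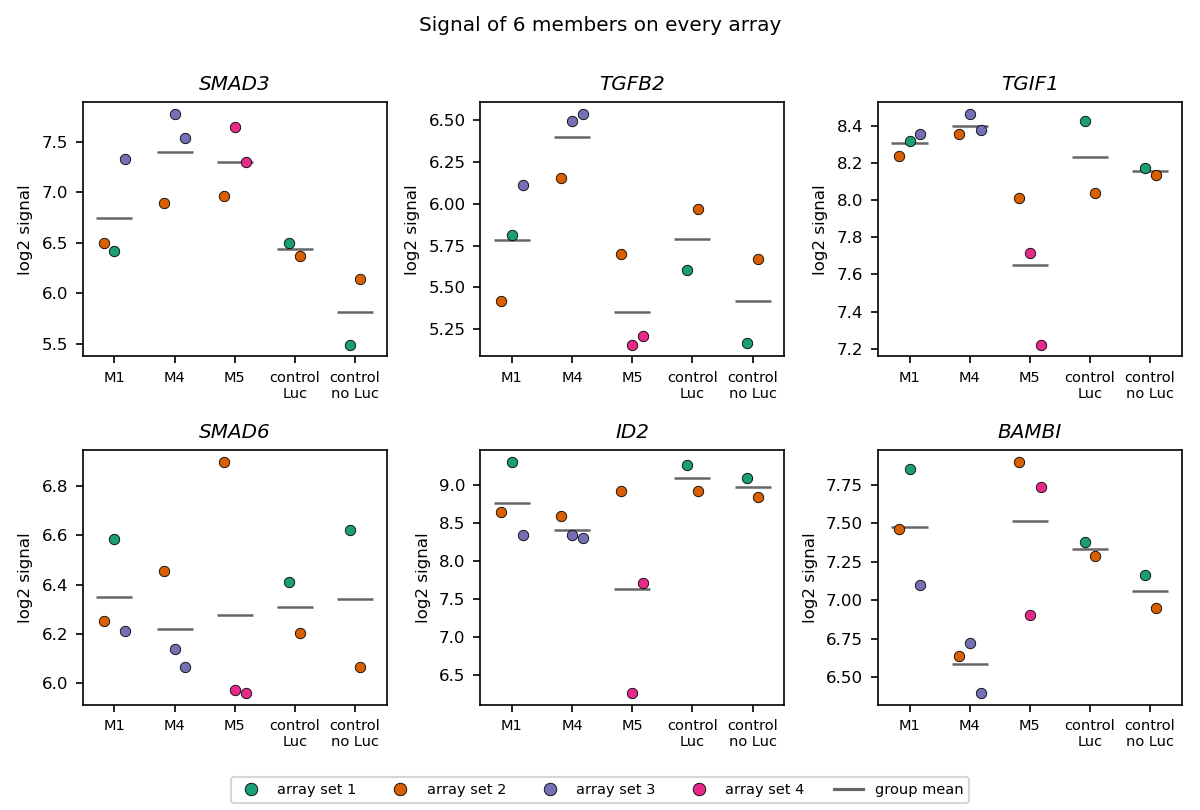
Log2 signal of SMAD3, TGFB2, TGIF1, SMAD6, ID2 and BAMBI on each array, by group from M1 to the controls, coloured by array set, with a line at each group mean. SMAD3 lies above all control arrays on all M4 and M5 arrays, and in TGIF1 and ID2 the 2 lowest points are the M5 arrays of set 4.

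SMAD6, which blocks BMP signalling, gave opposite signs in the 2 fits. It measured 6.25, 6.59 and 6.21 in M1, 6.46, 6.14 and 6.07 in M4 and 6.90, 5.97 and 5.96 in M5, against 6.41 and 6.20 in control with luciferase and 6.62 and 6.07 in control without it. M5 replicate 1 was the highest of all 13 arrays and M5 replicates 2 and 3 were the lowest. The M5 difference from control was -0.05 ± 0.22 (adjusted p = 0.927) without the block and 0.74 ± 0.14, or 1.67-fold, with it (adjusted p = 0.0263). The other 3 SMAD6 probe sets gave -0.28, 0.16 and 0.09 with the block. The higher signal was thus that of 1 probe set on M5 replicate 1.

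The remaining SMADs were not called, and SMAD7 and SMAD9 were dim, with means of 4.31 and 4.36, below the lower quartile of all genes. SMAD7, the inhibitory SMAD that TGF-beta itself induces in many cells, differed by 0.05 ± 0.20 in M5 without the block and by 0.54 ± 0.13 with it (adjusted p = 0.0616), and its mean over the lines with the block was 0.38 ± 0.08 (adjusted p = 0.0793). SMAD1, the BMP transducer, was lowest on set 1. It was 7.31, 6.40 and 7.32 in M1, 7.48, 7.70 and 7.55 in M4 and 7.33, 7.13 and 7.19 in M5, against 6.33 and 7.46 in control with luciferase and 6.67 and 7.59 in control without it. The 3 values under 7 all belong to set 1. SMAD4, the shared partner of the other SMADs, was 7.62 on M5 replicate 1 but 6.12 and 6.36 on M5 replicates 2 and 3, against 7.07 to 7.33 in control, so the M5 arrays lay on both sides of the controls. Its M5 difference was -0.50 ± 0.28 without the block and 0.31 ± 0.14 with it (adjusted p = 0.311). SMAD2 differed by 0.04 ± 0.09 in M5 without the block and by 0.01 ± 0.13 with it, SMAD9 by 0.10 ± 0.17 and -0.05 ± 0.15, and SMAD1 by 0.20 ± 0.29 and -0.17 ± 0.13. The other SMAD2 probe sets, not used in the fit, gave 0.04 and -0.15 in M5 without the block and 0.48 and 0.71 with it. The dimmer of them was 8.398 on M5 replicate 1 but 7.168 and 7.204 on M5 replicates 2 and 3, against 7.651 to 7.946 in control.

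TGFB2, a TGF-beta ligand, separated M5 from M4. Its signal was 5.42, 5.81 and 6.11 in M1, 6.15, 6.50 and 6.54 in M4 and 5.70, 5.16 and 5.21 in M5, against 5.60 and 5.97 in control with luciferase and 5.17 and 5.67 in control without it. All M4 arrays were above all other arrays, while M5 and M1 overlapped the controls. M5 averaged 5.35 ± 0.30 and M4 averaged 6.40 ± 0.21 (SD, n = 3 each), a difference of -1.04 ± 0.21 (adjusted p = 0.0236). M4 minus control was 0.80 ± 0.20 (adjusted p = 0.289), and 0.45 ± 0.17 with the block. With the block the M5 minus M4 difference was -0.44 ± 0.22 (adjusted p = 0.411), and within set 2 it was -0.46. Of its other 3 probe sets, those at -0.81 and -0.73 ran the same way without the block and the dimmest, at 0.17, did not. With the block these 3 gave, in the same order, 0.09, -0.43 and 0.21.

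All 8 ligands had a mean difference above 0 over the lines without the block, from 0.03 to 0.24, and 0 were called. With the block the range was -0.33 (INHBB) to 0.16, and BMP4 was at -0.09. BMP2, a bone-inducing ligand, was 4.07, 4.45 and 4.21 in M1, 3.92, 4.30 and 4.38 in M4 and 4.29, 5.12 and 4.78 in M5, against 3.98 and 4.19 in control with luciferase and 4.32 and 4.23 in control without it. The 2 high arrays were those of set 4, and the M5 difference was 0.55 ± 0.18 (adjusted p = 0.143) without the block and 0.17 ± 0.19 with it (adjusted p = 0.762). BMP7 showed the same in kind, with 6.01, 6.52 and 6.71 in M5 against 5.71 to 6.32 in control, and a difference of 0.45 ± 0.18 (adjusted p = 0.221), or 0.22 ± 0.15 with the block. BMP2, INHBA and INHBB, the last 2 of which encode activin and inhibin subunits, were among 6 members whose mean lay below the lower quartile of all genes. Without the block TGFB1 differed by 0.10 ± 0.17 in M5, TGFB3 by 0.13 ± 0.17, BMP4 by 0.32 ± 0.21, INHBA by 0.31 ± 0.17 and INHBB by 0.18 ± 0.22. With it TGFB1 differed by 0.07 ± 0.14, TGFB3 by -0.24 ± 0.18, BMP4 by -0.06 ± 0.19, INHBA by 0.02 ± 0.18 and INHBB by -0.36 ± 0.19. None was called, and TGFB3, BMP4 and INHBB changed sign. A dimmer second TGFB1 probe set read 5.12, 5.38 and 4.94 in M1 and 4.80, 5.10 and 4.95 in M4. In M5 it read 5.77, 5.90 and 6.15, against 5.42 to 5.76 in control. M1 and M4 thus lay below control on that probe set, and M5 above it, M5 replicate 1 by a narrow margin. Without the block its differences from control were -0.46 in M1, -0.66 in M4 and 0.33 in M5. Its M5 minus M4 difference was 0.99, against 0.17 for the brighter one.

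None of the 6 receptors was called in any comparison. TGFBR1, the type I TGF-beta receptor, was 5.79, 7.19 and 7.29 in M1, 6.71, 7.48 and 7.33 in M4 and 7.27, 6.39 and 6.32 in M5, against 6.87 and 6.91 in control with luciferase and 6.49 and 6.92 in control without it. The M1 arrays spanned both the lowest value and one of the highest, and the M5 difference was -0.14 ± 0.34 without the block and 0.62 ± 0.36 with it. TGFBR3, the co-receptor betaglycan that presents TGF-beta2, was 6.03, 6.68 and 6.66 in M1, 6.39, 7.08 and 6.86 in M4 and 5.98, 5.71 and 6.06 in M5, against 6.50 and 6.43 in control with luciferase and 6.54 and 6.005 in control without it. Every M5 array was below every M4 array (log2 difference -0.86 ± 0.21, adjusted p = 0.0635), and with the block the difference was -0.43 ± 0.20 (adjusted p = 0.368). ACVR1B, an activin receptor, was the third member with all M4 arrays above the controls, beside SMAD3 and TGFB2, but by a mean of 0.18 ± 0.14, and by 0.00 ± 0.15 with the block. It was 6.78, 6.69 and 7.12 in M1, 7.05, 7.17 and 7.17 in M4 and 6.90, 7.40 and 6.85 in M5, against 6.999 and 6.99 in control with luciferase and 6.95 and 6.86 in control without it. These 3 of 31 members stand against 5.92% of all genes with M4 wholly above control. On every other ACVR1B probe set M4 overlapped control. The brightest of those read 5.75, 5.52 and 5.77 in M4, against 5.39 to 5.63 in control. Differences of BMPR2, ACVR1 and ENG (endoglin) in M5 ran from -0.22 to 0.05 without the block and from -0.22 to 0.06 with it, and ENG was the highest in the first and the lowest in the second. ENG was 7.70 and 7.64 in control with luciferase, against 7.17 and 7.23 in control without it, the widest gap of any receptor between the 2 kinds of control (0.47 ± 0.14, adjusted p = 1.00).

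BAMBI, a decoy receptor that dampens TGF-beta and BMP signals, was lowest in M4. It measured 7.46, 7.86 and 7.10 in M1, 6.64, 6.72 and 6.40 in M4 and 7.90, 6.90 and 7.74 in M5, against 7.38 and 7.28 in control with luciferase and 7.17 and 6.95 in control without it. All M4 arrays lay below all other arrays. The M5 minus M4 difference was 0.93 ± 0.24 (adjusted p = 0.0718), and 1.15 ± 0.29 with the block (adjusted p = 0.0764). With the M5 arrays of set 4 left out, M5 is the single array at 7.90, whose spread is taken from the other groups. The difference was then 1.31 ± 0.24 (adjusted p = 0.0424), in a comparison that called 0.702% of all genes. Against control, M4 was at -0.61 ± 0.22 (adjusted p = 0.577), and at -0.31 ± 0.22 with the block. BAMBI and ID2 were the 2 members with all M4 arrays below all controls, against 5.53% of all genes. GREM1, a secreted BMP antagonist, lay below the lower quartile on every array. It read 3.44, 3.43 and 3.36 in M1, 3.27, 3.51 and 3.56 in M4 and 3.48, 3.33 and 3.25 in M5, against 3.54 and 3.29 in control with luciferase and 3.25 and 3.42 in control without it. The groups overlapped, and the M5 difference was -0.02 ± 0.11, or 0.13 ± 0.15 with the block.

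TGIF1, a homeodomain repressor of SMAD2 and SMAD3 targets, was lower in M5 than in M4. It measured 8.24, 8.32 and 8.36 in M1, 8.36, 8.47 and 8.38 in M4 and 8.01, 7.72 and 7.22 in M5, against 8.42 and 8.04 in control with luciferase and 8.17 and 8.14 in control without it. All M5 arrays were below all other arrays, M5 replicate 1 by the narrowest margin. M5 averaged 7.65 ± 0.40 and M4 averaged 8.40 ± 0.06 (SD, n = 3 each), and the difference of -0.75 ± 0.17 was called (adjusted p = 0.0398). Against control M5 was at -0.54 ± 0.16 (adjusted p = 0.0976), and at -0.10 ± 0.18 with the block. With the block the M5 minus M4 difference was -0.32 ± 0.20 (adjusted p = 0.525). SKI, a co-repressor that binds SMADs directly, was 6.72, 7.06 and 6.78 in M1, 6.60, 6.80 and 7.08 in M4 and 6.48, 6.82 and 6.84 in M5, against 6.89 and 6.92 in control with luciferase and 6.79 and 6.67 in control without it, with groups that overlapped throughout.

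Among the targets, ID2, a helix-loop-helix inhibitor of differentiation, had the widest range of any target. It was 8.65, 9.30 and 8.34 in M1, 8.59, 8.34 and 8.30 in M4 and 8.92, 6.27 and 7.72 in M5, against 9.25 and 8.92 in control with luciferase and 9.09 and 8.84 in control without it. The 2 low arrays were again M5 replicates 2 and 3, while M5 replicate 1 lay inside the control range. The M5 difference was -1.39 ± 0.44 (adjusted p = 0.132) without the block and 0.10 ± 0.39 with it (adjusted p = 0.947). ID3 was 10.28, 10.53 and 10.05 in M1, 10.37, 10.07 and 9.89 in M4 and 10.24, 9.20 and 10.11 in M5, against 10.46 and 10.49 in control with luciferase and 10.26 and 10.45 in control without it. All M5 arrays lay below all controls, by a mean of -0.56 ± 0.22 (adjusted p = 0.207), and with the block the difference was -0.17 ± 0.27. TGIF1 and ID3 were the 2 members with M5 wholly below control, against 6.3% of all genes, and SMAD3 the 1 wholly above, against 5.88%.

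ID1 differed by -0.28 ± 0.18 in M5, ID4 by 0.23 ± 0.16, PMEPA1 by 0.27 ± 0.15 and CDKN2B, which encodes the cell cycle inhibitor p15, by -0.03 ± 0.13. With the block ID1 differed by 0.16 ± 0.20, ID4 by 0.60 ± 0.19 (adjusted p = 0.150), PMEPA1 by 0.36 ± 0.15 and CDKN2B by -0.25 ± 0.15. A second ID4 probe set, not used in the fit, was 6.21 on M5 replicate 1 and between 3.70 and 4.50 on the other 12 arrays, including 4.05 and 4.50 on M5 replicates 2 and 3. The probe set used for ID4 was also highest on that array, at 5.02.

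**Figure D3:**
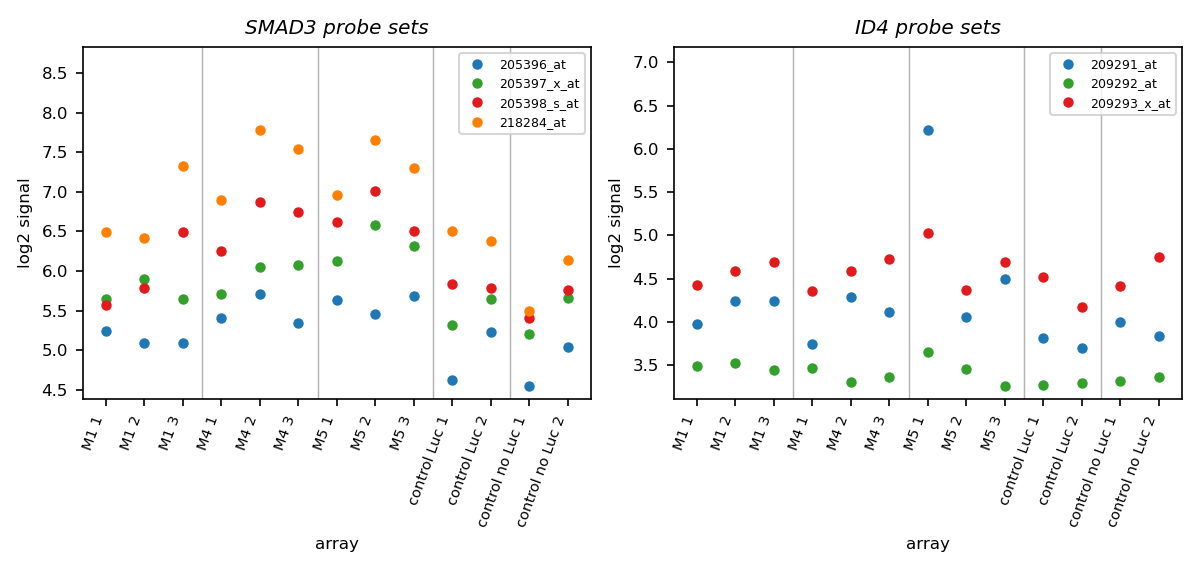
Log2 signal on each array of the 4 probe sets annotated to SMAD3 and the 3 annotated to ID4, groups from M1 to the controls. Every SMAD3 probe set is higher in the M5 mean than in the control mean, while for ID4 1 probe set stands at 6.21 on M5 replicate 1.

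The M5 arrays differed among themselves more than the M5 mean differed from control in SMAD4, SMAD6 and ID2, among others, and the 2 ways of taking them gave different counts. With M5 replicate 1 left out, so that M5 stood on set 4 alone, 9 of 31 members (29.0%) were called against control, where 25.6% of all genes were. BMP2 (0.77), BMP4 (0.59), BMP7 (0.65), INHBA (0.49) and SMAD3 (1.35) were then higher in M5, and SMAD4 (-0.96), TGIF1 (-0.73), ID2 (-2.03) and ID3 (-0.76) were lower, as log2 differences. For the mean of the lines the count was 1, SMAD3 (1.08 ± 0.20, adjusted p = 0.0208), against 2.44% of genes. The counts were 5 members for M5 minus M1 (19.8% of genes) and 10 for M5 minus M4 (20.4%). With M5 replicates 2 and 3 left out instead, which leaves M5 as 1 array, 0 members were called against control, where 0.318% of all genes were. SMAD3 was then 0.83 higher, TGIF1 was at -0.18 and ID2 at -0.11. On set 4 the genes below the lower quartile read 0.13 and 0.11 above the control mean and those above the upper quartile read -0.15 and -0.06 against it. The part of this in the members' values was not tested. The plot of M5 differences under the 2 fits shows each member.

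**Figure D4:**
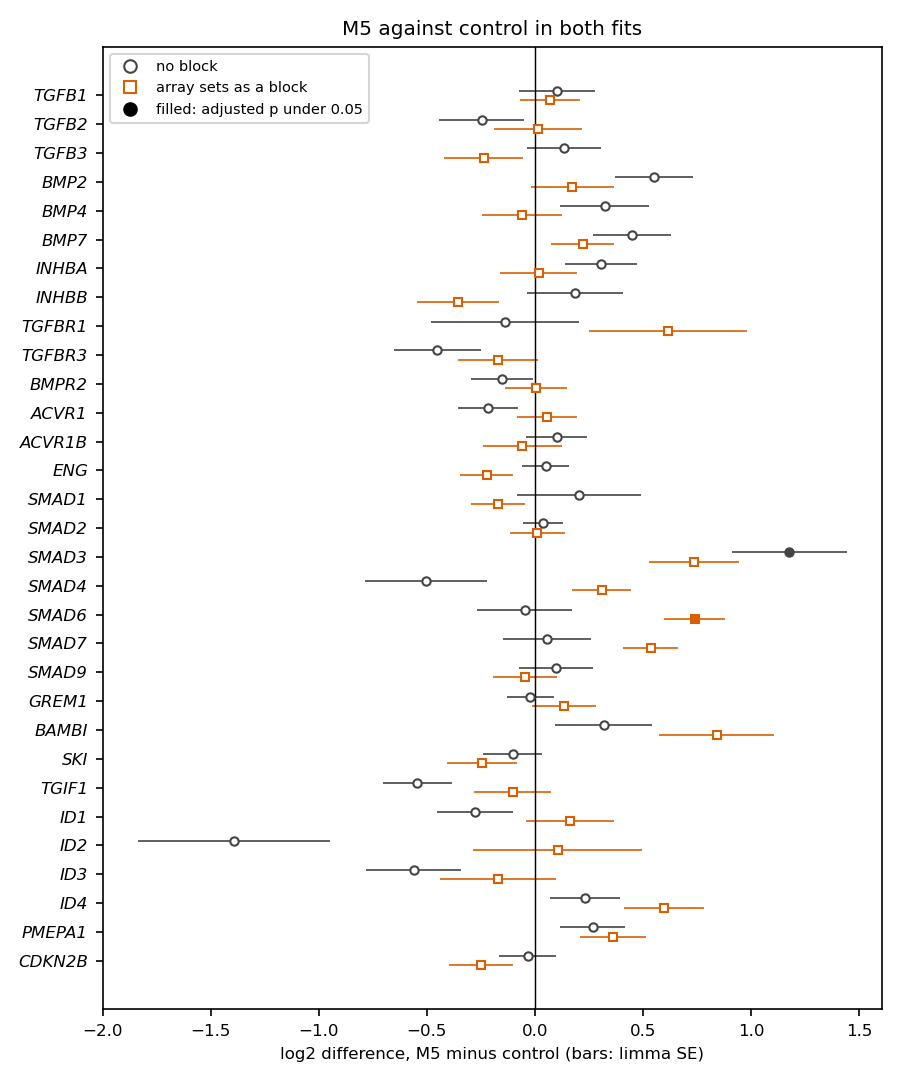
Log2 difference of M5 from control for each of the 31 members, without a block and with the array sets as a block, with bars of 1 SE and filled points where the adjusted p is under 0.05. SMAD3 is filled at 1.18 without the block and SMAD6 at 0.74 with it, and ID2 moves between -1.39 and 0.10.

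Other genes of the pathway were counted from 6 lists with 93 measured genes. These were further ligands, receptors and SMADs (20 genes), extracellular carriers and antagonists (19), intracellular regulators (19), TGF-beta targets (20), BMP targets (9), and TGF-beta-linked bone metastasis genes (6). Without the block 0 of the 93 were called for the mean of the lines or for M5 against control, and their median difference was 0.01 for both, against 0.01 and 0.03 over all genes. Without the block the largest mean differences over the lines were THBS1, which encodes an activator of latent TGF-beta (-0.92 ± 0.31, adjusted p = 0.450), and SNAI2, a repressor of epithelial genes (-0.84 ± 0.32, adjusted p = 0.539). With the block THBS1 was at -0.21 and SNAI2 at -0.05, while FST, the activin antagonist follistatin, was at -1.05 ± 0.31 (adjusted p = 0.229) and GDF15, a stress-induced ligand, at -0.87 ± 0.28 (adjusted p = 0.278). FSTL1, a follistatin-like secreted protein, was lower in M5 than in M4, with 9.40, 9.99 and 9.85 in M5 against 10.53, 11.44 and 11.14 in M4 (-1.29 ± 0.26, adjusted p = 0.0236), and was so with the block too (-1.11 ± 0.18, adjusted p = 0.0147).

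With the array sets as a block, 4 of the 93 were called for the mean of the lines, against 0.527% of all genes. JAG1, a Notch ligand that TGF-beta induces in breast tumour cells in bone, was higher (0.89 ± 0.10, adjusted p = 0.00242). TGFBR2, the type II TGF-beta receptor (-0.72 ± 0.11, adjusted p = 0.0209), CCN2, a matrix protein and TGF-beta target (-0.70 ± 0.11, adjusted p = 0.0209), and CCN1 (-0.79 ± 0.09, adjusted p = 0.00231) were lower. In M5 these 4, FSTL1 and MSX2, a BMP target, were called with the block, from M5 replicate 1 (6 of the 93, against 1.98% of all genes). JAG1 was 8.36 on that array but 6.40 and 6.50 on M5 replicates 2 and 3, against 5.94 to 6.83 in control. Within set 2 its difference from control was 0.54 for M1, 0.13 for M4 and 2.04 for M5. CCN2 was 10.13, 9.78 and 10.04 in M1 and 10.16, 9.98 and 9.84 in M4. In M5 it was 9.25, 10.22 and 9.78, against 10.31 to 10.63 in control. All 9 metastatic arrays thus lay below all 4 control arrays in CCN2, as in 0.326% of all genes. Within set 2 the CCN2 difference from control was -0.35 for M1, -0.32 for M4 and -1.23 for M5. CCN1 was 10.32, 9.93 and 10.27 in M1 and 10.21, 10.22 and 9.98 in M4. In M5 it was 9.31, 10.40 and 10.18, against 10.23 to 10.84 in control. TGFBR2 was 6.12, 6.61 and 6.59 in M5, 6.47, 6.78 and 6.68 in M4 and 6.61, 6.72 and 7.10 in M1, against 6.59 to 7.30 in control. Within set 2 the TGFBR2 difference from control was -0.68 for M1, -0.82 for M4 and -1.17 for M5, and within set 1 it was -0.06 for M1. Between M5 and M4 with the block, again from M5 replicate 1, SNAI2 (1.21 ± 0.23) and JAG1 (1.80 ± 0.17) were called as higher in M5. TAGLN, NEDD9, FSTL1 and CCN1 were called as lower. SNAI2 was 5.75 on M5 replicate 1 but 4.17 and 4.49 on M5 replicates 2 and 3, against 4.13 to 4.57 in M4. TAGLN was 3.79 on M5 replicate 1 but 4.11 and 4.08 on M5 replicates 2 and 3, against 4.09 to 4.49 in M4. NEDD9 was 5.46 on M5 replicate 1 and at least 5.95 on M5 replicates 2 and 3, against 6.04 to 6.17 in M4.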

How the data were processed

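RNA of 13 Affymetrix arrays was used as the series' deposited table of log2 signal, which the authors made by robust multi-array averaging (RMA), per the submitters' processing notes. No genome build is named in the labels or headers. Of 22277 probe sets 19064 name 1 gene, 1043 name several and 2108 name none. The probe set with the highest mean stood for each of 11963 genes, with no filter on low signal. Means of 5 groups were fitted with limma 3.58.1 in R 4.3.3 (lmFit and eBayes), for 8 comparisons, with Benjamini-Hochberg adjustment over all genes in each. On simulated data with 200 changed genes among 11963, the fit for the mean of the lines found 98% of the genes changed 2-fold, and 7.04% of its calls were false. Whether these shares hold for the arrays themselves, with their array sets, was not tested. In the arrays SMAD3 differed by 1.02 for that comparison without the block and was not called. No 2 arrays were alike within noise, with correlations of 0.975 to 0.998. Precision is limited by how few arrays each group had.

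The members and lists were chosen with earlier results of these data known. Per-array values were given for members called in either fit, for any whose 9 metastatic arrays all lay beyond the controls (none), and for the 2 with the largest difference in each role. The 4 array sets came from Ward clustering of the 62 control probe sets. Whether replicate numbers pair the arrays could not be settled, since number and array set overlap. Deviations from group means had correlations of -0.51 to 0.26 for same-numbered arrays in different sets (17 pairs). They were 0.05 to 0.53 for same-numbered arrays in the same set (6 pairs). Differently numbered arrays of the same set had 0.18 to 0.51 (9 pairs).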

Additional observations from a re-analysis of the deposited data

Results flagged for a closer look

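Differences between lines that passed the test of the difference itself were looked at again, since each line is set against the same control. M5 minus M4 was -1.04 for TGFB2 (adjusted p = 0.0236) and -0.75 for TGIF1 (adjusted p = 0.0398). It was -1.29 for FSTL1 (adjusted p = 0.0236), which within set 2 stood at -1.14. M5 minus M1 was -1.72 for COL3A1, a fibrillar collagen (adjusted p = 0.0226), with 9.12, 8.40 and 8.16 in M5 against 10.93, 10.10 and 9.80 in M1. COL3A1 was between 8.75 and 9.43 in control, and M1 minus control was 1.43 with the array sets as a block (adjusted p = 0.00521). With that block M5 minus M1 was -1.54 for COL3A1 (adjusted p = 0.0227), where M5 is M5 replicate 1 alone with its spread taken from the other arrays. TGFB2 and TGIF1 were not called with the block, and FSTL1 and COL3A1 were, which with 1 M5 array says little on how stable these differences are.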

How the results depend on the processing

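Counts of called members were recomputed under up to 15 other settings. For M1, for M4, for M4 minus M1, for the mean of the lines and between the 2 kinds of control the count stayed at 0 under each setting run. For M5 against control it was 1, and 0 with array sets from the spike-in probe sets as a block, with the replicate block, with only the groups compared in the fit, at an adjusted p under 0.01, with either kind of control alone, and with the M5 arrays of set 4 left out, a setting chosen after seeing the data. With array sets as a block it was 1 as well, but SMAD6 in place of SMAD3. For M5 minus M1 it was 2 with the largest-variance probe set (TGFB1 and BMP7, higher). For M5 minus M4 it was 2, and 0 with either block of array sets, with only the groups compared and at an adjusted p under 0.01, and 1 with the replicate block (TGFB2), with the mean of probe sets (TGIF1), with quantile normalization (TGFB2) and with the set 4 arrays left out (BAMBI). Leaving out 1 array at a time gave 0 to 1 called members for the mean of the lines (SMAD3, 1.08, without M5 replicate 1), 0 to 9 for M5, 0 to 5 for M5 minus M1, 0 to 10 for M5 minus M4, and 0 in the other comparisons. The highest counts came without M5 replicate 1.

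The SMAD3 difference in M5 stayed above 0 under 14 settings, from 0.73 to 1.49, and was called in 6 of them. It was 1.06 with the replicate block (adjusted p = 0.0633), and from 1.00 to 1.35 with 1 array left out (adjusted p from 0.00542 to 0.181). With 1 array left out it was called in 5 of 13 fits. The SMAD6 difference in M5 changed sign to 0.74 with array sets as a block, 0.62 with spike-in sets, 0.053 with the replicate block, 0.030 with the mean of probe sets and 0.57 without the set 4 arrays. It ran from -0.36 to 0.11 with 1 array left out. The cause was not tested. With 1 array left out, TGFB2 in M5 minus M4 ran from -1.21 to -0.94 and TGIF1 from -0.93 to -0.54. TGFB2 was called in 9 of these 13 fits (limma adjusted p up to 0.122) and TGIF1 in 3 (up to 0.169). With the line as a random block a value could be had for the mean of the lines only.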
